A study of Mus musculus with 224 samples.

Results

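Glutamate is the main excitatory transmitter of the brain. Neurons load it into synaptic vesicles with the vesicular glutamate transporters VGLUT1 (Slc17a7), VGLUT2 (Slc17a6) and VGLUT3 (Slc17a8), and after release it is cleared mostly by the astrocyte transporters GLT-1 (Slc1a2) and GLAST (Slc1a3), with the neuronal transporter EAAC1 (Slc1a1) taking a smaller share. Astrocytes then turn glutamate into glutamine with glutamine synthetase (Glul), and neurons can take glutamine up again through carriers such as SNAT1 (Slc38a1). The expression of these 8 genes was followed in 5 brain regions of mice that inhaled ethanol, drank ethanol, did both or did neither. A probeset, a set of short probes read as 1 value, was assigned to a gene where the array annotation gave that gene's symbol and no other. This found 21 of 45037 probesets, with 1 for Slc17a7, 2 for Slc17a6, 5 for Slc1a2, 6 for Slc1a3, 3 for Slc1a1, 2 for Glul and 2 for Slc38a1. Slc17a8 had no probeset of its own symbol in the annotation used and was not analysed here. A further probeset that lists Slc1a2 together with Gm13872 was left unnamed.

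The animals were male C57BL/6J mice bought at 10 weeks of age, in 4 treatment groups. CIE Drinking mice had cycles of chronic intermittent ethanol (CIE) vapor and a choice of ethanol or water between the cycles, Air Drinking mice had the same choice but breathed air, CIE NonDrinking mice had vapor and only water, and Air NonDrinking mice had air and only water and stayed free of ethanol. Each of 4 cycles held 4 days of vapor at 16 h a day and then 72 h without ethanol. The drinking sessions lasted 2 h with 15% ethanol, and both drinking groups had drunk for 6 weeks before the first cycle. Tissue was taken on the last drinking day of the final cycle, before that day's session. By the authors' account the drinking groups were then less than a day from ethanol and the NonDrinking groups more than a week. The authors also report that CIE Drinking mice drank more than Air Drinking mice after most vapor cycles, though not after every one. The CIE mice received 1.6 g/kg ethanol with 1 mmol/kg pyrazole by injection before vapor and the air mice received saline with pyrazole, so that every group, the ethanol-free one included, carried pyrazole, an inhibitor of alcohol dehydrogenase. The regions were the hippocampus (HPC), the prefrontal cortex (PFC), the bed nucleus of the stria terminalis, or BNST, the central nucleus of the amygdala (CeA) and the nucleus accumbens (NAC), with 224 arrays in all. A group held 11 or 12 arrays per region, apart from Air NonDrinking with 8 in the HPC, 8 in the CeA and 10 in the BNST.

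Values are log2 expression as deposited, so that a difference of 1 is a doubling, and levels of different probesets cannot be set against each other. Within each region LIMMA compared CIE Drinking with Air Drinking (Comparison 1), CIE NonDrinking with Air NonDrinking (Comparison 2), CIE Drinking with CIE NonDrinking (Comparison 3), CIE Drinking with Air NonDrinking (Comparison 4), CIE NonDrinking with Air Drinking (Comparison 5) and Air Drinking with Air NonDrinking (Comparison 6). The interaction is the vapor response of drinking mice minus that of nondrinking mice. A difference was called significant where its p, adjusted by Benjamini-Hochberg over all probesets of the region, was at most 0.01. The comparisons share groups, so that a high Air Drinking mean enters Comparisons 1, 5 and 6 alike. Comparisons 3 to 6 and the interaction set drinking against nondrinking mice, where drinking cannot be told apart from a shorter time since ethanol. Comparison 1 holds the higher intake of the CIE Drinking mice together with vapor. Precision is limited by how many arrays a group held, and in tissue RNA fewer cells of a type and less RNA per cell cannot be told apart.

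The regional labels were set against marker genes, each ranked as a percentile among all probesets of an array. Striatal projection neuron markers had a median percentile of 97.2 in the NAC and of 70.1 to 80.7 elsewhere, and markers of excitatory neurons of cortex and hippocampus stood at 93.1 in the HPC, 88.7 in the PFC, 78.4 in the CeA, 69.3 in the NAC and 55.4 in the BNST. The central amygdala markers did not set the CeA apart, at 75.6 there against 82.2 in the BNST and 77.2 in the NAC, and choroid plexus markers stood at 90.5 in the CeA but at 22.3 to 30.8 in the other regions. Of 224 arrays, 1 stood apart by its correlation with the rest of its region, with a robust z under -5. This was Air NonDrinking mouse 51 in the PFC (-5.43). The calls within the PFC were fitted again without it, of which 13 were kept and 4 were lost, and the lost ones are given below. Differences between regions were not fitted without it. In the same group mice 48, 47 and 53 came at -4.96, -3.42 and -3.12, and PFC Air Drinking mouse 28 at -4.08. The lowest array of the other regions was that of CeA Air Drinking mouse 30 (-4.34). No fit left these further arrays out by their quality.

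Over the 6 comparisons and 5 regions, 18 of 630 tests of the member probesets were called, 13 of them in the PFC, 2 in the HPC, 2 in the CeA, 1 in the NAC and 0 in the BNST. A comparison with 1 call among 21 probesets has a share close to the background of several of these comparisons and is given for the gene alone. The calls came from 11 of the 21 probesets and from Slc17a6, Slc1a2, Slc1a3, Slc1a1 and Slc38a1. In the PFC the called probesets of Slc17a6 and Slc38a1 and 1 of Slc1a2 were high in mice that drank without vapor, whereas in the HPC and CeA every call was a higher level of 1 Slc1a2 probeset in mice with both vapor and drinking.

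**Figure D1:**
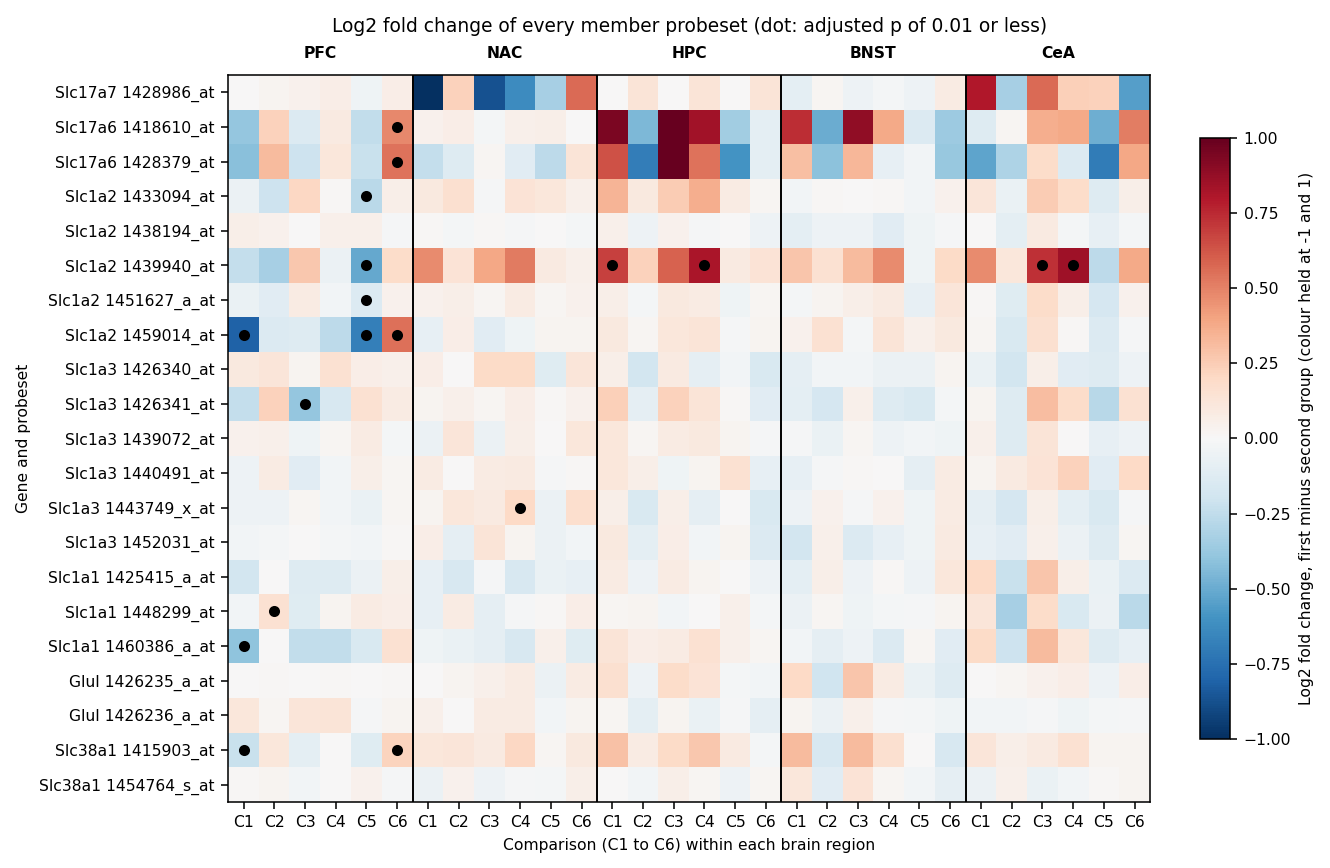
Log2 fold change of the 21 member probesets (rows) in Comparisons 1 to 6 (C1 to C6, columns) of each brain region, the first group minus the second, with a dot where the adjusted p was at most 0.01. Of the 18 dots 13 are in the PFC, where Comparisons 5 and 6 hold 4 each, and the deep colours of Slc17a7 in the NAC and Slc17a6 in the HPC carry no dot.

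Slc17a7 encodes VGLUT1, the vesicular transporter of most cortical and hippocampal excitatory neurons (chr7:45163921-45176139, GRCm38.p6). Its probeset 1428986_at had a mean percentile of 80.1 ± 1.4 (SD, n = 42) in the HPC and 79.1 ± 1.1 (SD, n = 47) in the PFC. These means differed by less than the larger SD over arrays, which describes single arrays and is no test of the means. The probeset stood at 60.6 ± 9.5 (SD, n = 43) in the CeA, 38.3 ± 15 (SD, n = 47) in the NAC and 16.1 ± 2.0 (SD, n = 45) in the BNST. Regions were normalised separately, so the order of percentiles is a description. The CeA and NAC stand out by their spread, with an SD of 0.71 and 1.00 in log2 expression, against 0.12 in the PFC, 0.14 in the HPC and 0.14 in the BNST.

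**Figure D2:**
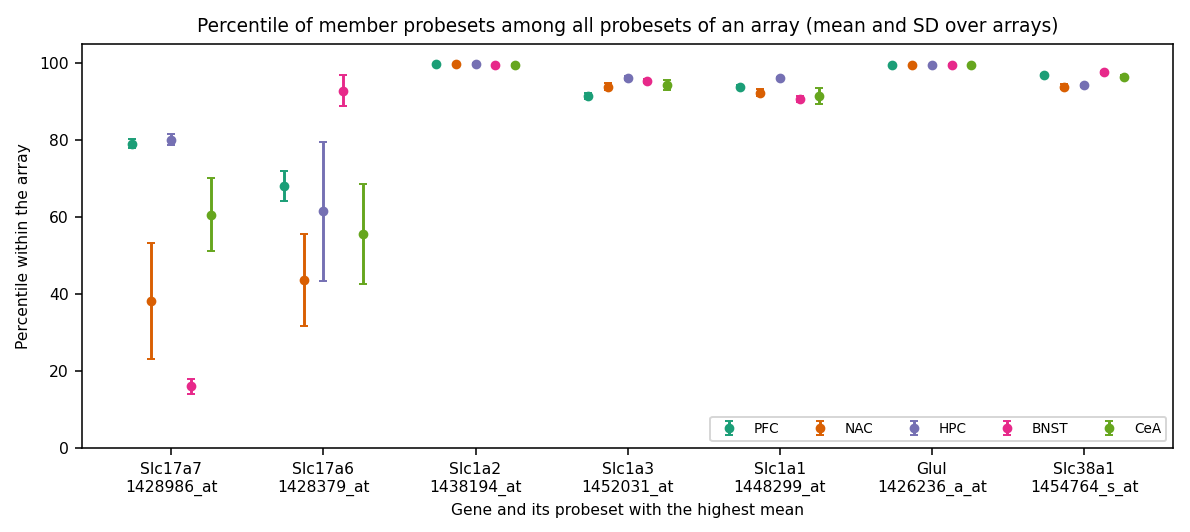
Mean percentile (points) and SD over arrays (bars) of the highest-mean probeset of each member among all probesets of an array, by brain region. Slc17a7 and Slc17a6 differ most between regions, with Slc17a7 lowest (16.1) and Slc17a6 highest (92.8) in the BNST, whereas Slc1a2 and Glul stand above the 99th percentile in all 5.

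No difference of Slc17a7 between groups was called by LIMMA in 30 tests, of which 7 had an unadjusted p under 0.05. In the NAC the level ran from 5.06 over a median of 5.56 to 6.80 in CIE Drinking mice and from 5.29 over 7.13 to 8.23 in Air Drinking mice. CIE NonDrinking mice ran from 5.35 over 6.07 to 8.03 and Air NonDrinking mice from 5.11 over 6.04 to 8.52. The CIE Drinking arrays lay low and all groups overlapped, with a log2 fold change of -1.20 in Comparison 1 (SE 0.37, 95% interval -1.93 to -0.47, adjusted p = 0.0752). In the CeA the same comparison was 0.80 (SE 0.26, 95% interval 0.28 to 1.31, adjusted p = 0.118), with CIE Drinking at 6.28 to 8.95 and Air Drinking at 6.21 to 8.25. In the PFC it was 0.00 (SE 0.05, 95% interval -0.10 to 0.10).

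The mean of 9 markers of cortical and hippocampal excitatory neurons, a list without Slc17a7, spread in the same regions. Its SD over arrays was 0.54 in the NAC and 0.40 in the CeA, against 0.11 in the PFC, 0.08 in the HPC and 0.14 in the BNST. In the NAC its median was 8.47 in CIE Drinking and 9.26 in Air Drinking arrays, and in the CeA 9.74 and 9.36. The list thus lay on the same side as Slc17a7 in both regions, and its part in the Slc17a7 values was not tested. Of its 21 probesets LIMMA called 0 in Comparison 1 of the NAC, where 7 had an unadjusted p under 0.05, and 1 in that of the CeA, higher in CIE Drinking mice.

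**Figure D3:**
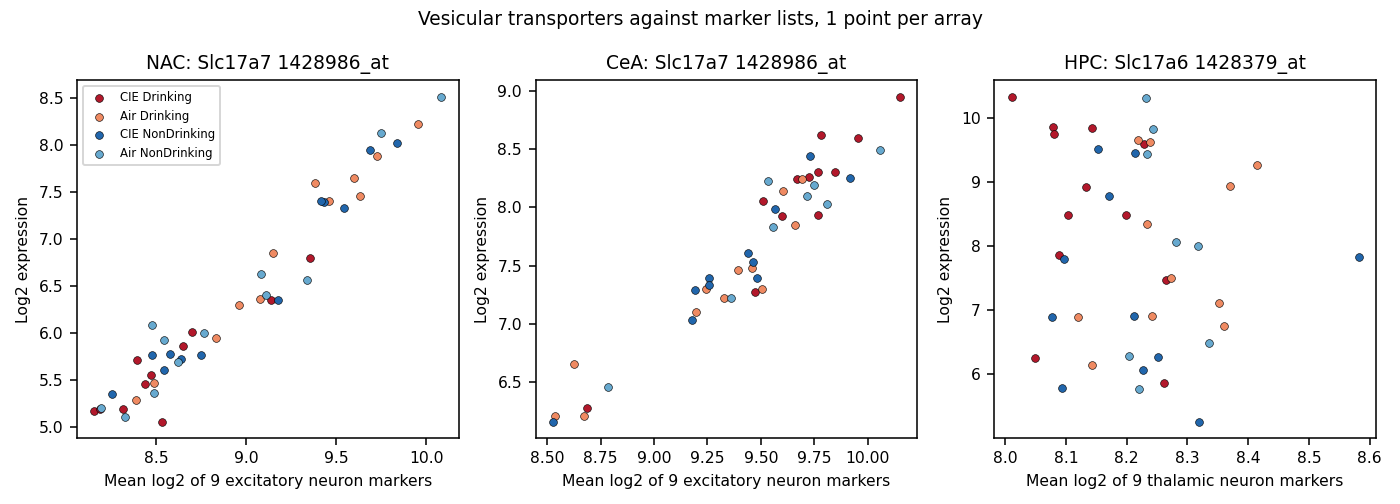
Each point is 1 array. Slc17a7 in the NAC (left, 5.06 to 8.52) and CeA (middle, 6.16 to 8.95) is plotted against the mean log2 expression of 9 excitatory neuron markers, and Slc17a6 in the HPC (right, 5.26 to 10.33) against that of 9 thalamic neuron markers. The excitatory list ran from 8.16 to 10.08 in the NAC and from 8.53 to 10.15 in the CeA, and the thalamic list from 8.01 to 8.58 in the HPC. No correlation of a transporter with its list was computed.

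Slc17a6 encodes VGLUT2, which prevails in thalamic, hypothalamic and other subcortical excitatory neurons (chr7:51621830-51671126, GRCm38.p6). By probeset 1428379_at its mean percentile was 92.8 ± 4.0 (SD, n = 45) in the BNST, 68.1 ± 3.8 (SD, n = 47) in the PFC, 61.5 ± 18 (SD, n = 42) in the HPC, 55.6 ± 13 (SD, n = 43) in the CeA and 43.7 ± 12 (SD, n = 47) in the NAC. The BNST lay above the rest, while each of the other neighbours in this order differed by less than the larger of their SDs. The thalamic list was also highest in the BNST, at a median percentile of 74.9 against 53.2 to 66.9 elsewhere.

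Slc17a6 was the only member for which every measured probeset was called, and so the bases before its annotated starts are shown. RefSeq (GRCm38.p6) gives a pair of windows, each the 250 bases before a start on the forward strand. The first is chr7:51621580-51621829 and the second chr7:51624387-51624636.
Slc17a6 upstream start: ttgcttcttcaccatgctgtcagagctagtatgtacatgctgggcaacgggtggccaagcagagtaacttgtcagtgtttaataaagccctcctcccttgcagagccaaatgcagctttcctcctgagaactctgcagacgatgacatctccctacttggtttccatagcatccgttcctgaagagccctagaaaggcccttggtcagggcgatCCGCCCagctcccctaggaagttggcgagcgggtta
Slc17a6 downstream start: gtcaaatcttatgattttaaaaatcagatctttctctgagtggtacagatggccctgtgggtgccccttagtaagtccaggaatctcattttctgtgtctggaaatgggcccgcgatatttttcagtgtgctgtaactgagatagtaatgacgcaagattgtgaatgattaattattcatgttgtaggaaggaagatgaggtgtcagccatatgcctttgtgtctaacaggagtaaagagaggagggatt
The capitals mark a GC box, CCGCCC, the reverse complement of GGGCGG. Both strands were searched for 4 motifs. Of 32851 windows of this length 32.7% hold the GC box, 33.8% hold CCAAT, 12.4% hold the TATA box TATAAA and 1.55% hold the cyclic AMP response element TGACGTCA. The downstream window holds no match to any of them. A match in these letters is a description of the sequence and not a site.

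In the PFC, Slc17a6 was higher in mice that drank without vapor than in ethanol-free mice. Probeset 1428379_at ran from 7.65 over a median of 8.14 to 8.76 in Air Drinking mice and from 7.30 over 7.61 to 8.0 in Air NonDrinking mice. CIE Drinking mice ran from 7.33 over 7.75 to 8.19 and CIE NonDrinking mice from 7.53 over 7.88 to 8.60. The Air Drinking arrays were the highest group and the Air NonDrinking arrays the lowest, with some overlap, and 8 of 11 Air Drinking arrays exceeded all Air NonDrinking arrays. The log2 fold change of Comparison 6 was 0.54 (SE 0.12, adjusted p = 0.00437 by LIMMA), and by probeset 1418610_at it was 0.48 (SE 0.11, adjusted p = 0.0064). Here 4 of 21 member probesets were called, all higher, where 0.959% of all probesets were called higher, and the members' median log2 fold change was 0.0569 against -0.0125 over all probesets. Probeset 1418610_at was dim in the PFC, at a mean percentile of 44, and was not tested in the fit that left out dim probesets. Without Air NonDrinking mouse 51 the call of 1418610_at was lost (0.46, adjusted p = 0.0134).

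The vapor response of Slc17a6 in the PFC differed between drinking and nondrinking mice. Comparison 1 gave -0.42 (SE 0.12, adjusted p = 0.021) and Comparison 2 gave 0.32 (SE 0.11, adjusted p = 0.0866) for 1428379_at, neither of them called. Their difference, the interaction, was -0.74 (SE 0.16, adjusted p = 0.00269). Probeset 1418610_at gave an interaction of -0.62 (SE 0.15, adjusted p = 0.00748), or -0.60 (adjusted p = 0.0107) without mouse 51. Of the 21 member probesets 4 were called for the interaction, all lower, against 1.86% of all probesets. With array quality weights 8 were called lower and 3 higher over the 5 regions.

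Markers moved in these PFC comparisons too. In Comparison 6, 4 of 32 probesets of the thalamic list were higher and 1 lower, namely 3 of Rorb by 0.50 to 0.59, 1 of Ntng1 by 0.46, and Synpo2 with -0.34. Of 21 probesets of the excitatory list 3 were higher and 0 lower, with log2 fold changes of 0.74 for Cux2, 0.55 for Camk2a and 0.15 for Nrgn. The mean of the 9 thalamic markers ran from 6.79 to 7.20 in Air Drinking and from 6.81 to 7.09 in Air NonDrinking arrays, while that of the excitatory list ran from 10.09 to 10.36 and from 9.79 to 10.15. Of the other cell type lists, Fgfr3 of astrocytes (0.29) and Bok of hippocampal neurons (0.33) were higher in Comparison 6 and Nts of the central amygdala list (-0.46) was lower. The mean of 8 striatal markers, of whose 16 probesets LIMMA called 0 and 9 had an unadjusted p under 0.05, had a median of 8.26 in Air Drinking and 8.99 in Air NonDrinking arrays, with ranges of 8.12 to 9.72 and 8.17 to 9.53. For the interaction 5 thalamic and 3 excitatory probesets were lower and 0 higher. In the other lists 9 were higher, namely 3 of Gfap by 0.63 to 1.22, Clic6 of the choroid plexus by 1.16, Ppp1r1b of striatal neurons by 0.82, Cnp and Mobp of oligodendrocytes by 0.70 and 0.38, Nts by 0.61 and Prox1 by 0.42. A further 6 were lower, with -0.59 for Map2, -0.55 for Gad1, -0.52 for Bok, -0.41 for Fgfr3, -0.40 for Mbp and -0.36 for Flt1 of endothelial cells. The part of these markers in the Slc17a6 values was not tested. In the remaining regions no difference of Slc17a6 was called, and the spread was wide. In the HPC 1428379_at ran from 5.85 to 10.33 in CIE Drinking and from 5.26 to 9.52 in CIE NonDrinking mice (Comparison 3, 1.23, SE 0.58, 95% interval 0.09 to 2.38, adjusted p = 0.297).

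**Figure D4:**
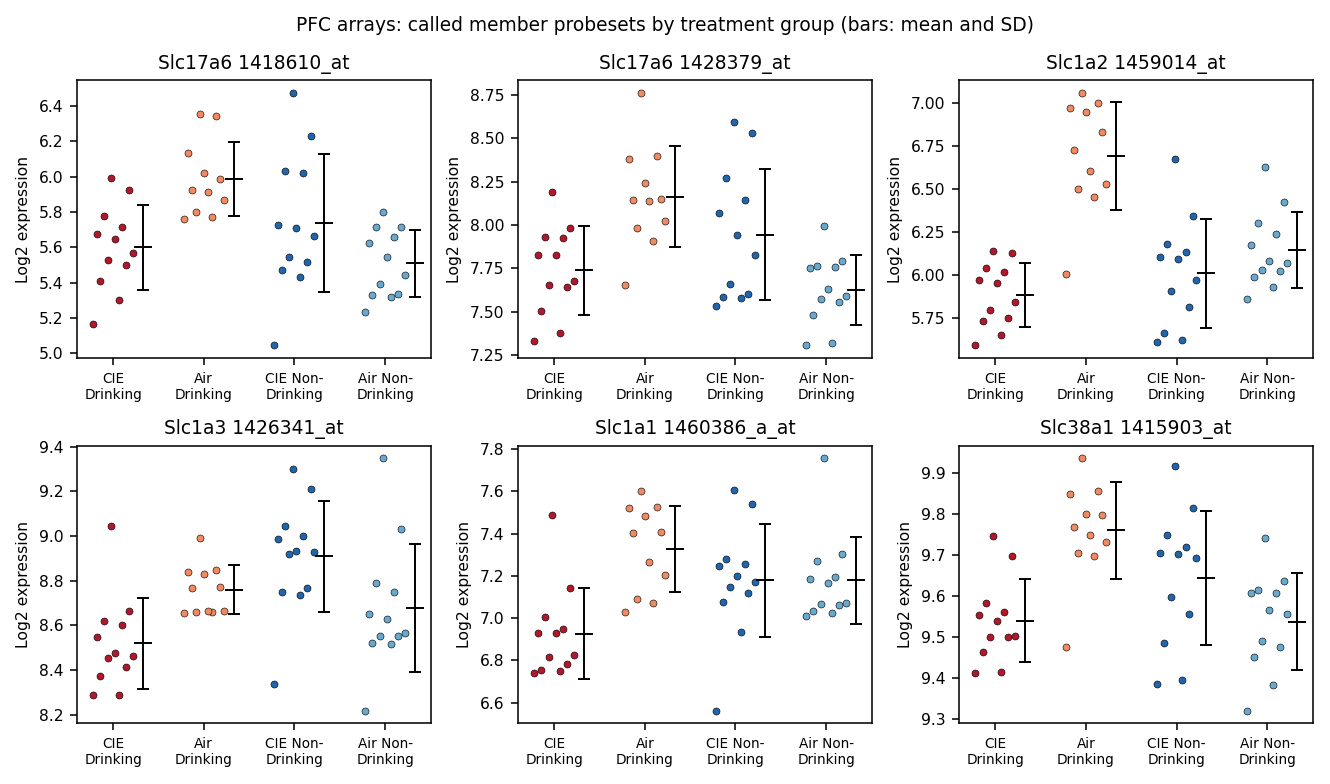
Log2 expression of 6 called probesets in every PFC array by treatment group, with the mean and SD as bars beside the points. Slc17a6, Slc38a1 and Slc1a2 1459014_at have their highest mean in the Air Drinking group, Slc1a1 1460386_a_at has its lowest mean in the CIE Drinking group (6.74 to 7.49), and the mean of Slc1a3 1426341_at is lower in the CIE Drinking than in the CIE NonDrinking group.

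Slc1a2 encodes GLT-1, the transporter that clears most synaptic glutamate (chr2:102658239-102790784, GRCm38.p6). Its 5 probesets are given one by one. The one with the highest mean, 1438194_at, stood at a percentile of 99.5 to 99.9 in every region, with an SD of 0.06 to 0.14 in log2 expression, and none of its 30 tests was called (4 had an unadjusted p under 0.05). Its log2 fold changes ran from -0.11 to 0.09. The other 4 probesets accounted for 10 calls. Where in the gene each probeset lies is not given in the sources used here.

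Probeset 1459014_at, which stood at a mean percentile of 49.5 in the PFC and of 21.8 to 30.6 elsewhere, was high in Air Drinking mice of the PFC. It ran from 6.01 over a median of 6.73 to 7.06 in Air Drinking mice, from 5.59 over 5.90 to 6.14 in CIE Drinking mice, from 5.61 over 6.03 to 6.67 in CIE NonDrinking mice and from 5.87 over 6.08 to 6.63 in Air NonDrinking mice. The Air Drinking arrays were the highest group, and 8 of 12 CIE Drinking arrays lay below all of them. Comparison 1 gave -0.81 (SE 0.11, adjusted p = 7.75e-06), the smallest adjusted p of the members in the 6 comparisons within a region, with 12 of 12 arrays on the side of the change. Comparison 5 gave -0.68 (SE 0.11, adjusted p = 4.33e-05). Comparison 6 gave 0.55 (SE 0.11, adjusted p = 0.00158), and the interaction was -0.67 (SE 0.15, adjusted p = 0.00286). In Comparison 1 of the PFC 3 of 21 member probesets were called, all lower, against 1.06% of all probesets. Outside the PFC, where this probeset was dim and may hold little signal, its log2 fold change in Comparison 1 ran from -0.08 to 0.10. The PFC response differed from that of each other region by -0.73 to -0.90 (LIMMA over all 5 regions, adjusted p from 1.15e-08 to 1.39e-05).

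In Comparison 5 of the PFC 4 of the 5 Slc1a2 probesets were lower in CIE NonDrinking than in Air Drinking mice. These groups differ in both vapor and drinking. In Comparison 2, where the groups differ in vapor and the ethanol injection given with it, no Slc1a2 probeset of the PFC was called. A missing call does not show that the level was unchanged. By LIMMA 9 of 21 member probesets had an unadjusted p under 0.05 there. At an adjusted p of 0.05, Comparison 2 held 3 lower and 1 higher member probesets over the 5 regions. The 4 Slc1a2 probesets lower in Comparison 5 were all the member probesets called in it, against 1.44% of all probesets called lower. Besides 1459014_at these were 1439940_at with -0.51 (SE 0.09, adjusted p = 0.000202), 1433094_at with -0.27 (SE 0.06, adjusted p = 0.00515) and 1451627_a_at with -0.14 (SE 0.03, adjusted p = 0.00276). Probeset 1439940_at ran from 9.69 over a median of 10.03 to 10.40 in CIE NonDrinking and from 10.28 over 10.57 to 10.87 in Air Drinking mice, and 9 of 12 CIE NonDrinking arrays lay below all Air Drinking arrays. Its Air NonDrinking mean was 10.39 (SD 0.29, n = 12). For 1438194_at the same comparison was 0.05 (SE 0.03, 95% interval 0.00 to 0.10, adjusted p = 0.33). The intervals of the called probesets lie below 0, and the difference between the probesets was not tested. The calls of 1433094_at and 1451627_a_at were lost when quantile normalization was applied again (adjusted p of 0.0112 and 0.0173), and that of 1433094_at also with only the 2 groups in the fit (adjusted p = 0.0156).

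In the HPC and CeA, 1439940_at was instead higher in mice with both exposures. In the HPC it ran from 10.11 over a median of 10.36 to 10.52 in CIE Drinking mice, from 8.73 over 10.00 to 10.26 in Air Drinking mice, from 8.95 over 9.91 to 10.09 in CIE NonDrinking mice and from 9.20 over 9.53 to 9.90 in Air NonDrinking mice. All 12 CIE Drinking arrays lay above all 8 Air NonDrinking arrays and above all 11 CIE NonDrinking arrays. Comparison 4 gave 0.82 (SE 0.16, adjusted p = 0.000789), the 1 call among 21 member probesets against 3% of all probesets called higher. Comparison 1 gave 0.68 (SE 0.15, adjusted p = 0.00545), again the 1 call of 21, against 1.08% of all probesets, and it was lost with only the 2 groups in the fit (adjusted p = 0.0305). All 21 member probesets had a positive log2 fold change in this comparison, with a median of 0.103 against -0.0132 over all probesets. They come from 7 genes on the same arrays and are not independent, so that this count is a description. Comparison 3 gave 0.59 (SE 0.15, adjusted p = 0.0339) and was not called.

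In the CeA 1439940_at ran from 8.89 over a median of 9.58 to 10.16 in CIE Drinking mice, from 8.11 over 9.26 to 9.66 in Air Drinking mice, from 8.02 over 8.82 to 9.53 in CIE NonDrinking mice and from 8.07 over 8.76 to 9.30 in Air NonDrinking mice. The CIE Drinking arrays were the highest group and overlapped the others, with 10 of 12 above all Air NonDrinking arrays. Comparison 4 gave 0.85 (SE 0.18, adjusted p = 0.00312) and Comparison 3 gave 0.73 (SE 0.17, adjusted p = 0.00661), each the 1 call of 21 member probesets, against 1.83% and 1.57% of all probesets called higher. With array quality weights the call in Comparison 3 was lost (0.62, adjusted p = 0.0145). In Comparison 3, 19 of 21 members were positive with a median of 0.159, against -0.00833 over all probesets, which is again a description. Comparison 4 of this probeset was 0.52 (SE 0.17, adjusted p = 0.069) in the NAC and 0.47 (SE 0.16, adjusted p = 0.113) in the BNST, neither called. The response in the PFC was lower than in the HPC by a difference of -0.92 in Comparison 1 (adjusted p = 0.00367) and of -0.87 in Comparison 4 (adjusted p = 0.00633), and lower than in the CeA by -0.90 in Comparison 4 (adjusted p = 0.00616).

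**Figure D5:**
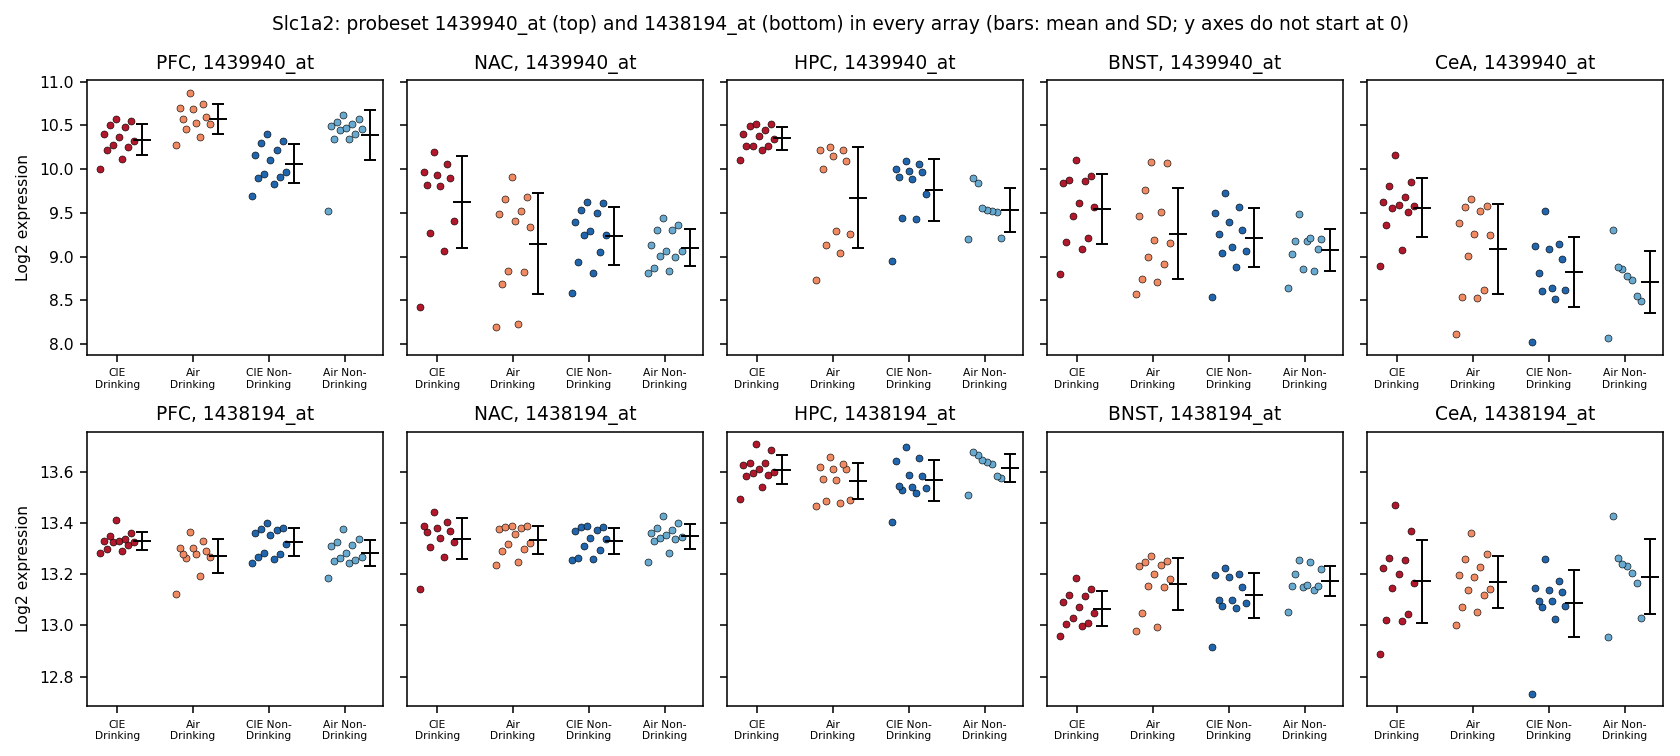
Log2 expression of Slc1a2 by probeset 1439940_at (top) and 1438194_at (bottom) in every array of the 5 regions by treatment group, with the mean and SD beside the points. In the HPC all 12 CIE Drinking arrays of 1439940_at (10.11 to 10.52) lie above the 8 Air NonDrinking arrays (9.20 to 9.90), whereas the groups of 1438194_at overlap in every region.

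Astrocyte and neuron markers were set beside these values of Slc1a2. Of 31 probesets of 12 astrocyte markers, LIMMA called 0 in Comparisons 1 and 4 of the HPC and Comparisons 3 and 4 of the CeA. An unadjusted p under 0.05 was reached by 4, 5, 3 and 0 of them, and the list's median log2 fold change there ran from -0.06 to 0.04. Of 22 probesets of general neuron markers 1 was higher in Comparison 1 of the HPC (Syt1 by 0.58, adjusted p = 0.00355), 2 in its Comparison 4, 3 in Comparison 3 of the CeA and 1 in its Comparison 4, with 1.05 for Syt1 in the CeA as the largest. Of 21 excitatory neuron probesets 1 was higher in Comparison 1 of the HPC (by 0.34, adjusted p = 0.00934), 2 in its Comparison 4 and 3 in Comparison 3 of the CeA, all of Camk2a. A probeset of Mbp, a myelin protein of oligodendrocytes, was higher in Comparisons 1 and 4 of the HPC by 0.48 and 0.49, as were Gad2 of inhibitory neurons by 0.79 and 1.05, Cx3cr1 of microglia by 0.30 and 0.34, and 2 probesets of the striatal marker Pde10a by 0.33 to 0.42. Of 32 probesets of the thalamic list 3 were higher in Comparison 4 of the HPC and 1 in that of the CeA, by 0.33 to 0.69. The list means did not all move alike. In the HPC the thalamic medians in CIE Drinking and Air NonDrinking arrays were 8.12 and 8.24, and in the CeA 8.13 and 8.25. The HPC medians of these groups were 10.57 and 10.63 for the oligodendrocyte list and 8.45 and 8.52 for the striatal list. They were 9.92 and 9.77 for the inhibitory and 9.96 and 9.87 for the microglia list. Over all CeA arrays the choroid plexus mean ran from 7.76 to 12.92 (SD 1.58). CeA medians in CIE Drinking, CIE NonDrinking and Air NonDrinking arrays were 10.98, 11.71 and 11.39 for the oligodendrocyte list. They were 8.55, 9.09 and 8.96 for the central amygdala list, 11.69, 11.5 and 11.74 for the neuron list and 9.74, 9.44 and 9.64 for the excitatory list. The groups overlapped in each of these lists. In the PFC 3 astrocyte probesets, all of Gfap, were higher by 0.53 to 0.89 in Comparison 1 and 1 of Fgfr3 was lower (-0.34), while LIMMA called 0 in Comparison 5, where 7 had an unadjusted p under 0.05. Neuron markers were lower in Comparison 1 of the PFC, with -0.67 for Cux2, -0.51 for Rasgrf2 and -0.16 for Nrgn among the excitatory probesets, -0.23 to -0.50 for 5 thalamic probesets of Rora and Rorb, and -0.15 for Dlx1 of inhibitory neurons. Of the hippocampal list Bok was lower there (-0.27) and Prox1 higher (0.38). In Comparison 5 of the PFC Camk2a (-0.37), Rorb (-0.61), Rora (-0.47) and Mbp (-0.62) were lower. The part of these markers in the values of Slc1a2 was not tested.

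RefSeq gives for Slc1a2 a window before a start inside the gene, chr2:102706188-102706437 on the forward strand, shown because 4 of the 5 probesets of this gene had calls and 1 had none.
Slc1a2 inner start: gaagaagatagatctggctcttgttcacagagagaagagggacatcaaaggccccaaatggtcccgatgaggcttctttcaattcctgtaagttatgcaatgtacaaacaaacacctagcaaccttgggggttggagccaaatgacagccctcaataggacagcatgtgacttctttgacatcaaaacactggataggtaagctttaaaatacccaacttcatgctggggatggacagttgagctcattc
None of the 4 searched motifs stands in it, and no capitals are therefore used. Whether a probeset reads transcripts from this start is not given in the sources used here.

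Slc1a3 encodes GLAST, the other main astrocyte transporter (chr15:8634124-8710807, GRCm38.p6). Its highest-mean probeset 1452031_at stood at a mean percentile of 96.2 ± 0.54 (SD, n = 42) in the HPC, 95.3 ± 0.55 (SD, n = 45) in the BNST, 94.3 ± 1.2 (SD, n = 43) in the CeA, 93.9 ± 0.91 (SD, n = 47) in the NAC and 91.5 ± 0.77 (SD, n = 47) in the PFC. The means of the BNST and CeA, and those of the CeA and NAC, differed by less than the larger SD over arrays. Of 6 probesets 2 were called, each in 1 comparison, and the other 4 ran from -0.18 to 0.23 in log2 fold change.

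In the PFC probeset 1426341_at ran from 8.29 over a median of 8.47 to 9.04 in CIE Drinking mice and from 8.33 over 8.93 to 9.30 in CIE NonDrinking mice, with Air Drinking at 8.66 to 8.99 and Air NonDrinking at 8.22 to 9.35. By this probeset the level was lower in CIE Drinking than in CIE NonDrinking mice although the groups overlapped. Of 12 CIE Drinking arrays 11 lay below the CIE NonDrinking mean. The log2 fold change of Comparison 3 was -0.39 (SE 0.09, adjusted p = 0.0051), the 1 call of 21 member probesets against 0.722% of all probesets called lower. Of 31 astrocyte probesets 1 was called in this comparison and it was higher, a probeset of Gfap by 0.70 (adjusted p = 0.00814). No other Slc1a3 probeset was called in the PFC. Over the comparisons there 1452031_at ran from -0.03 to 0.01, 1443749_x_at from -0.07 to 0.02 and 1426340_at from 0.03 to 0.15. Probeset 1439072_at ran from -0.04 to 0.08 and 1440491_at from -0.11 to 0.08. The difference between the probesets was not tested. In the NAC 1443749_x_at ran from 10.80 over 10.94 to 11.08 in CIE Drinking and from 10.64 over 10.71 to 10.87 in Air NonDrinking mice, and 6 of 11 CIE Drinking arrays exceeded all Air NonDrinking arrays. Comparison 4 gave 0.20 (SE 0.05, adjusted p = 0.00447), the 1 call of 21 against 2.37% of all probesets called higher, and quantile normalization applied again ended it (adjusted p = 0.0149). In the same NAC comparison 1 of 31 astrocyte probesets was higher, of Slc4a4 by 0.41, and 1 was lower, of Sox9 with -0.15.

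Slc1a1 encodes EAAC1, a neuronal transporter of glutamate and cysteine (chr19:28835135-28913960, GRCm38.p6). Its highest-mean probeset 1448299_at stood at a mean percentile of 96.2 ± 0.24 (SD, n = 42) in the HPC, 93.9 ± 0.45 (SD, n = 47) in the PFC, 92.3 ± 0.86 (SD, n = 47) in the NAC, 91.5 ± 2.0 (SD, n = 43) in the CeA and 90.7 ± 0.86 (SD, n = 45) in the BNST. The means of the NAC and CeA, and those of the CeA and BNST, differed by less than the larger SD over arrays. Single PFC arrays (92.9 to 94.8) also overlapped those of the NAC (90.5 to 94) and CeA (87.4 to 95.4). In the PFC 1460386_a_at ran from 6.74 over a median of 6.88 to 7.49 in CIE Drinking and from 7.03 over 7.40 to 7.60 in Air Drinking mice, with CIE NonDrinking at 6.56 to 7.61 and Air NonDrinking at 7.01 to 7.76. The median was lowest in the CIE Drinking group, although single CIE NonDrinking arrays lay lower still, and 10 of 12 CIE Drinking arrays lay below all Air Drinking arrays. The log2 fold change of Comparison 1 was -0.40 (SE 0.09, adjusted p = 0.00487). The PFC response minus that of the HPC was -0.53 (adjusted p = 0.00322), and minus that of the CeA it was -0.59 (adjusted p = 0.000467).

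Probeset 1448299_at was higher with vapor among nondrinking mice of the PFC. It ran from 10.85 over a median of 10.96 to 11.06 in CIE NonDrinking and from 10.68 over 10.85 to 10.92 in Air NonDrinking mice, and 9 of 12 CIE NonDrinking arrays exceeded all Air NonDrinking arrays. Comparison 2 gave 0.15 (SE 0.04, adjusted p = 0.00776), the 1 call of 21 member probesets against 0.573% of all probesets called higher. The call was lost under 4 of 6 other settings, among them without mouse 51 (adjusted p up to 0.028 over the 6). The third probeset, 1425415_a_at, was not called and ran from -0.22 to 0.28.

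Glul encodes glutamine synthetase, the astrocyte enzyme that forms glutamine from glutamate and ammonia (chr1:153899929-153909723, GRCm38.p6). Probeset 1426236_a_at stood at a mean percentile of 99.4 to 99.6 in every region, with an SD of 0.06 to 0.10 in log2 expression. By LIMMA neither Glul probeset was called in 60 tests, of which 11 had an unadjusted p under 0.05. The smallest adjusted p were 0.0301 for 1426236_a_at in Comparison 4 of the PFC (0.13, SE 0.04, 95% interval 0.06 to 0.21) and 0.0335 for 1426235_a_at in Comparison 3 of the BNST (0.28, SE 0.07, 95% interval 0.13 to 0.42). In the first, 12 of 12 CIE Drinking arrays, at 12.98 to 13.15, lay above the Air NonDrinking mean of 12.91. In Comparison 4 of the PFC 0 of 21 member probesets were called by LIMMA and 4 had an unadjusted p under 0.05, while 0.722% of all probesets were called in either direction. The PFC response of 1426236_a_at in Comparison 4 exceeded that in the HPC by 0.20 (SE 0.05, adjusted p = 0.00871).

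Slc38a1 encodes SNAT1, a sodium-coupled carrier by which neurons take up glutamine (chr15:96571418-96643438, GRCm38.p6). Its highest-mean probeset 1454764_s_at stood at a mean percentile of 97.6 ± 0.43 (SD, n = 45) in the BNST, 96.9 ± 0.17 (SD, n = 47) in the PFC, 96.5 ± 0.35 (SD, n = 43) in the CeA, 94.2 ± 0.48 (SD, n = 42) in the HPC and 93.9 ± 0.72 (SD, n = 47) in the NAC. The HPC and NAC means differed by less than the larger SD over arrays. This probeset was not called in 30 tests, of which 1 had an unadjusted p under 0.05, and its log2 fold changes ran from -0.11 to 0.14.

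Probeset 1415903_at was high in Air Drinking mice of the PFC. It ran from 9.48 over a median of 9.77 to 9.94 in Air Drinking mice, from 9.41 over 9.52 to 9.75 in CIE Drinking mice, from 9.39 over 9.70 to 9.92 in CIE NonDrinking mice and from 9.32 over 9.56 to 9.74 in Air NonDrinking mice. The CIE Drinking and Air NonDrinking arrays covered nearly the same range, and both overlapped the lower Air Drinking arrays. Comparison 1 gave -0.22 (SE 0.05, adjusted p = 0.00791) and Comparison 6 gave 0.22 (SE 0.05, adjusted p = 0.00873). The interaction was -0.33 (SE 0.07, adjusted p = 0.00371). The call in Comparison 6 was lost with only the 2 groups in the fit (adjusted p = 0.018), after renewed quantile normalization (adjusted p = 0.016) and without mouse 51 (adjusted p = 0.0117). For 1454764_s_at these comparisons were 0.01 (95% interval -0.05 to 0.07) and -0.01 (95% interval -0.06 to 0.05), and the difference between the probesets was not tested.

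Outside the PFC 1415903_at had positive values in Comparison 1 that were not called. In the BNST CIE Drinking mice ran from 9.88 over 10.24 to 10.39 and Air Drinking mice from 9.57 over 9.91 to 10.27 (0.32, SE 0.08, adjusted p = 0.017). In the HPC the difference was 0.29 (SE 0.07, adjusted p just above the threshold), with 12 of 12 CIE Drinking arrays above the Air Drinking mean. The difference between regions was called, with a PFC response lower by -0.54 than that of the BNST (adjusted p = 3.88e-05), by -0.51 than that of the HPC (adjusted p = 0.000108) and by -0.34 than that of the CeA (adjusted p = 0.00891). Together with the values given above for Slc1a2, Slc1a1 and Glul, 13 of 168 tests of a regional difference were called, from 5 probesets. In Comparison 1 the PFC response was lower than that of the NAC for 1 of 21 member probesets (0.558% of all probesets), of the HPC for 4 (1.48%), of the BNST for 2 (1.29%) and of the CeA for 3 (1.77%). In Comparison 4 it differed from the HPC for 2 (3.28%) and was lower than in the CeA for 1 (1.29%), while 0 differed from the NAC (0.182%) and 0 from the BNST (0.595%).

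In the BNST LIMMA called no member probeset in any comparison. Between 1 and 6 of 21 had an unadjusted p under 0.05 in each, where 0.943%, 0.401% and 1.22% of all probesets were called in Comparisons 1, 3 and 4 and 0% in the rest. In the NAC no member was called in Comparisons 1, 3 and 5, where 0.282%, 0.02% and 0.00222% of all probesets were, nor was any in Comparison 3 of the HPC (0.0832%) or Comparison 1 of the CeA (0.177%). Comparisons 2 and 6 of these regions and Comparison 5 of the HPC and CeA gave no call over all probesets. In these comparisons 1 to 6 of 21 members had an unadjusted p under 0.05. The interaction was called for 0% of all probesets outside the PFC, with 2 to 8 of 21 members at an unadjusted p under 0.05.

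Other genes of glutamate handling were counted from lists of their own. Of 28 probesets of 11 enzymes of glutamate metabolism, Got2, the mitochondrial aspartate aminotransferase, was lower in Comparison 1 of the PFC (-0.22, SE 0.05, adjusted p = 0.00639) and in Comparison 4 of the NAC (-0.20, SE 0.05, adjusted p = 0.0075). Got1, the cytosolic counterpart of Got2, was lower in Comparison 3 of the PFC (-0.16, SE 0.03, adjusted p = 0.00101), and Asns, the asparagine synthetase, was higher in Comparison 2 (0.12, SE 0.03, adjusted p = 0.0086). Of 13 probesets of 8 other glutamine transporters, Slc38a2 (SNAT2) was lower in Comparisons 4 and 6 of the PFC (-0.22 and -0.28, adjusted p of 0.00739 and 0.000759), where Slc38a1 was higher in Comparison 6. Slc7a5, the large neutral amino acid exchanger LAT1, was lower in Comparison 3 of the PFC (-0.14, SE 0.03, adjusted p = 0.00308).

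Of 10 probesets of 6 other glutamate and cystine transporters of the plasma membrane, 1 of Slc1a4, a neutral amino acid transporter, was higher in Comparisons 2 and 5 of the PFC (0.21 and 0.17, adjusted p of 0.0012 and 0.0071). Of 6 probesets of 4 mitochondrial glutamate carriers, 1 of Slc25a12, an aspartate-glutamate carrier, was higher in Comparison 4 of the CeA (0.20, adjusted p = 0.00573) and of the NAC (0.15, adjusted p = 0.00221). Of 12 probesets of 6 genes whose products bind or traffic glutamate transporters, 2 of Sh3gl2, which encodes endophilin of vesicle endocytosis, were higher in Comparison 3 of the CeA (0.47 and 0.84, adjusted p of 0.00705 and 0.00576). In the interaction of the PFC, Got2, Asns, Aldh18a1 and Slc7a5 were lower, by -0.29, -0.16, -0.23 and -0.21. No other call fell on these lists.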

How the data were processed

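RNA of each region was hybridized to Affymetrix mouse expression arrays. The deposited values are log2 expression, which the authors obtained by RMA, normalized by quantiles in each region and adjusted with ComBat. The ComBat batches are not given with the samples, so values could not be recomputed batch by batch. Of 45037 probesets, 574 lacked a value in the HPC, 608 in the BNST, 1068 in the CeA and 10 in the NAC. The platform annotation held by GEO gave 1 symbol to 34945 probesets, several to 932 and none to 9160. The columns of all 224 arrays were used.

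All probesets of a region were fitted with limma (version 3.58.1, R version 4.3.3), with 1 mean per group, empirical Bayes variances and two-sided tests. Responses were compared between regions in a joint fit, alternatively with arrays of a mouse number as a block (statmod 1.5.0). The fit was tested on simulated data. The 8 members, the gene lists and the settings were chosen with earlier results of these data known. Every called member probeset is named with its values, others by range, and list genes only where called or beside a member. Some genes of the lists are not reported here. Other settings were array quality weights, quantile normalization applied again, leaving out dim probesets, fitting only the groups compared, robust variances with a trend, and an adjusted p of 0.05, and a fit without PFC mouse 51 was added after seeing the data. The 51 mouse numbers each stood in 1 treatment group and 32 in all 5 regions, and nothing else in the labels says that arrays of a group came from separate mice. Upstream windows and gene positions were taken from RefSeq (GRCm38.p6), where 7 of 8 members had a window. Figures used Python 3.11.15 with matplotlib 3.10.9.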

Additional observations from a re-analysis of the deposited data

Results flagged for a closer look

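Of 63 checks of the 21 member probesets in groups of at most 10 arrays, 2 found an array far from its group, and about 1 such group in 20 is expected by chance. In the CeA the lowest Air NonDrinking array of Slc1a3 1426341_at was at 7.28, with the next at 8.18. In the BNST the lowest Air NonDrinking array of Slc38a1 1415903_at was at 9.71, with the next at 9.99.

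The vapor response in the PFC differed between drinking and nondrinking mice for Slc17a6 (-0.62 by 1418610_at and -0.74 by 1428379_at), Slc1a2 1459014_at (-0.67) and Slc38a1 1415903_at (-0.33). Between regions, the response of CIE Drinking against Air Drinking mice in the PFC differed for Slc1a2 1459014_at by -0.73 from the NAC, -0.90 from the HPC, -0.84 from the BNST and -0.83 from the CeA. It differed for Slc38a1 1415903_at by -0.51, -0.54 and -0.34 from the HPC, BNST and CeA, for Slc1a1 1460386_a_at by -0.53 and -0.59 from the HPC and CeA, and for Slc1a2 1439940_at by -0.92 from the HPC. Against Air NonDrinking mice, the CIE Drinking response of Slc1a2 1439940_at differed by -0.87 from the HPC and -0.90 from the CeA, and that of Glul 1426236_a_at by 0.20 from the HPC. Each difference was tested by LIMMA, and their causes were not tested.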

How the results depend on the processing

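The 22 calls of single member probesets were tested again under up to 6 other settings each, 121 tests in all, of which 106 kept the call, 15 lost it and 0 turned direction. Array quality weights gave more calls over the 5 regions, 15 instead of 4 in Comparison 1 (6 higher instead of 1), 5 instead of 2 in Comparison 3 (4 higher instead of 1), 7 instead of 3 in Comparison 4 and 11 instead of 4 for the interaction (3 higher instead of 0). At an adjusted p of 0.05 there were 10, 4, 9 and 8 calls in Comparisons 1 to 4 and 9 for the interaction. The single call of Comparison 2 went to 0 with only the 2 groups compared and with renewed quantile normalization, which left 2 of 4 calls in Comparison 5. With only the 2 groups compared, Comparison 4 had 6. Without Air NonDrinking mouse 51 of the PFC, chosen after seeing the data, Comparison 2 had 0 calls and Comparison 6 had 2 instead of 4, those of Slc17a6 1428379_at and Slc1a2 1459014_at.

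Within a region no paired analysis was possible because no mouse number stood in more than 1 treatment group. Deviations from the group means in a pair of regions had a median correlation over mice of -0.00452 to 0.063. With the mouse number as a replicate block, 5 probesets differed in response between regions, with the same 13 calls, but at a consensus correlation of 0.0146 this block changes the fit little. Array quality weights gave 12 such probesets and an adjusted p of 0.05 gave 10. Hybridization batch and, between regions, separate normalization cannot be told apart from what they adjusted. Signal above background was not given for a probeset, so that values of dim ones such as Slc17a7 in the BNST may hold little signal.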

Other observations

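The probesets most like each member in their pattern over treatment groups were found by Pearson correlation over 20 group means, 4 in each region, with every region centred. They share arrays and normalization with the member, and the values are a description. For Slc17a7 they were 2 probesets of Neurod2, a transcription factor of excitatory neurons (0.979 and 0.975), and Fhl2 (0.975). For Slc17a6 they were Amn (0.894), Tmtc4 (0.85) and Cntn4 (0.847). For Slc1a2 1438194_at they were Mef2a (0.887), Supt20 (0.883) and Runx1t1 (0.84), and for Slc1a3 1452031_at Gmcl1 (0.826), 2500004C02Rik (0.826) and Rassf10 (0.817). For Slc1a1 1448299_at they were Vps13a (0.92), Purg (0.914) and Gnaq (0.91). For Glul 1426236_a_at they were H2bc21 (0.887), Qk (0.877) and Id2 (0.87), and for Slc38a1 1454764_s_at Pyurf (0.907), Aldh1a1 (0.88) and Deptor (0.863).

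The probeset that lists both Gm13872 and Slc1a2 was not called in any region or comparison, with a smallest adjusted p of 0.136 in Comparison 6 of the PFC (-0.22, SE 0.10).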
